A study of Mus musculus with 96 samples.

Results

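The comparison described here set the striatum of mice carrying 1 Q140 allele against that of wild-type mice. It used 16 of the 96 libraries of the series: 8 labelled as heterozygous Q140 knock-in striatum (Q140) and 8 labelled as wild-type striatum (WT), chosen by their titles alone. Libraries from animals that also carried a Pms1 mutation were left out of this contrast. All animals were C57BL/6 mice aged 6 months, and each group held 4 females and 4 males, 1 library per animal. Total RNA had been purified on RNeasy columns and sequenced from stranded TruSeq libraries, per the labels' protocols. The remaining 80 libraries came from cortex or from the other 4 genotypes, which combine Pms1 heterozygous or null alleles with or without Q140.

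Q140 is a knock-in allele in which the mouse Htt gene carries an expanded CAG repeat, the kind of mutation that causes Huntington's disease. The striatum is the brain region that degenerates most in that disease. Most striatal neurons are medium spiny neurons (MSNs), GABA-releasing projection neurons that receive dopamine from the midbrain and glutamate from the cortex. MSNs of the direct pathway carry the dopamine receptor D1, which raises cAMP, and those of the indirect pathway carry the dopamine receptor D2, which lowers it. Both kinds read these signals through a dedicated set of G proteins, adenylyl cyclase, phosphodiesterases and phosphatase inhibitors, and the results are ordered along that route. The libraries were made from pieces of tissue, so fewer cells of a type and less RNA per cell cannot be told apart in any result below.

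Read counts over genes summed to between 32454122 and 56364535 in the WT libraries and to between 35798997 and 55237836 in the Q140 libraries. All 16 libraries fell with their labelled tissue and sex, and every pair of libraries within a group differed by more than sampling noise. Levels are given as normalised read counts (CPM, scaled by TMM factors), and changes as the log2 fold change of Q140 over WT. Htt (ENSMUSG00000029104, chromosome 5, 34761740 to 34912534, GRCm38) lay between 206 and 221 CPM in WT (median 210.0) and between 196 and 211 CPM in Q140 (median 204). The fitted difference was small (log2 fold change -0.07, SE 0.023, adjusted p = 0.016) and turned to 0.0053 when library totals were used without TMM factors. Reads over the whole gene cannot show the repeat, so this does not check the genotype. Pms1, which both groups carry intact, lay between 4.89 and 5.84 CPM in WT (median 5.38) and between 4.38 and 6.28 CPM in Q140 (median 5.39) and was not called (log2 fold change -0.05, SE 0.076, adjusted p = 0.69).

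Many genes differed between the groups, most of them slightly. Of 18890 genes tested, 5909 were called at an adjusted p below 0.05, which is 31.3% of the genes tested; 2999 were higher in Q140 (15.9%) and 2910 lower (15.4%). The median log2 fold change was 0.21 among genes called higher and -0.20 among genes called lower. Genes called and changed by more than 1.5-fold numbered 606 (3.21% of the genes tested), 314 higher and 292 lower. In 1535 genes (8.13%) the 8 Q140 and the 8 WT animals did not overlap, 601 with every Q140 animal above every WT animal and 934 with every Q140 animal below. These shares are the background against which the counts of each gene group are set below. Called genes were higher in 50.8% of cases with TMM factors and in 79.8% with library totals alone, so the balance of directions depends on how RNA composition is scaled. Where library totals turn the order of directions within a gene group or make the directions even, those counts stand in brackets.

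**Figure D1:**
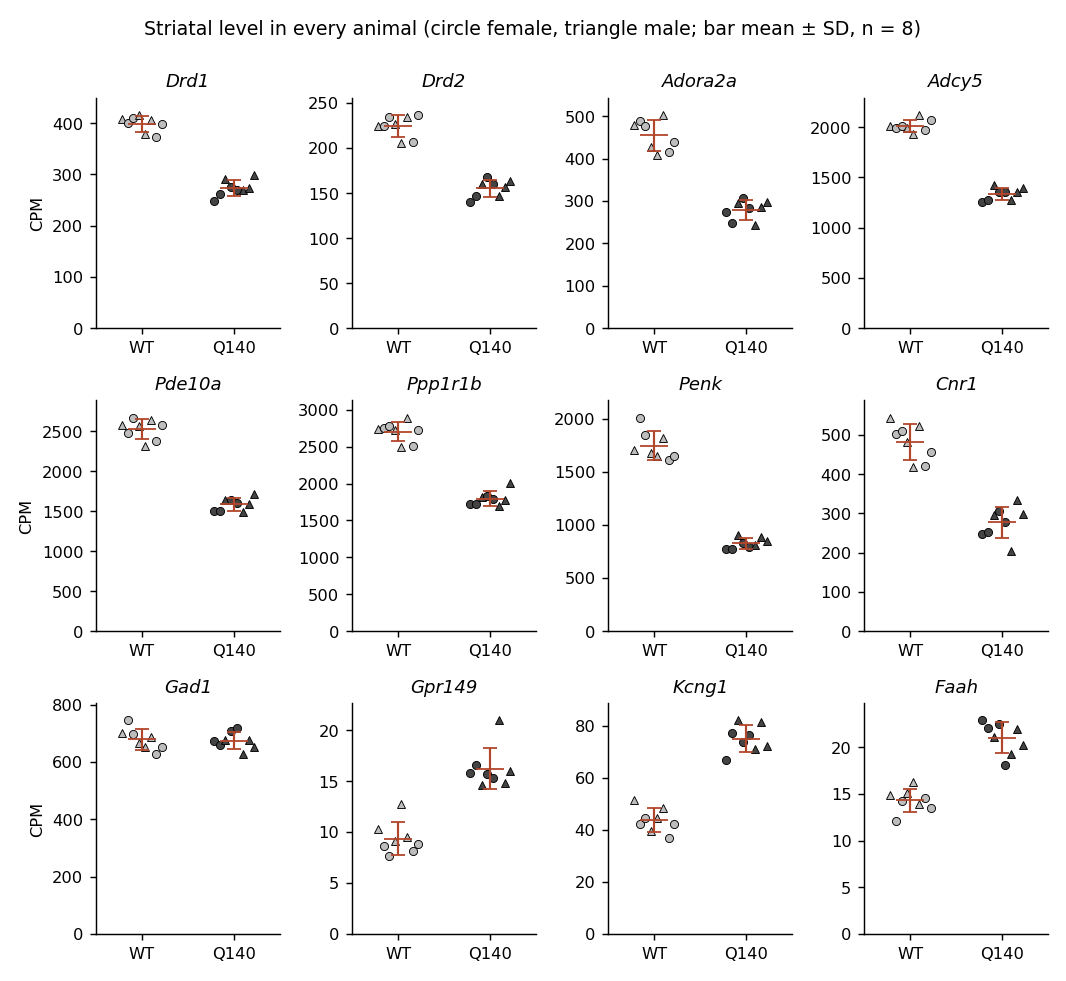
Level of 12 genes in every animal, in CPM from 0, for 8 WT and 8 Q140 animals; circles are females, triangles males, and bars the mean ± SD. The receptors and cAMP genes Drd1 to Ppp1r1b, Penk and Cnr1 are lower in every Q140 animal than in every WT animal, Gad1 overlaps, and Gpr149, Kcng1 and Faah are higher in every Q140 animal.

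Receptors through which dopamine, adenosine and acetylcholine act on MSNs were lower in Q140. Drd1, the D1 receptor of direct-pathway MSNs, (ENSMUSG00000021478, chromosome 13, 54051183 to 54055705) lay between 373 and 417 CPM in WT (median 403) and between 248 and 299 CPM in Q140 (median 272). Drd2, the D2 receptor of the indirect pathway, lay between 206 and 237 CPM in WT (median 226) and between 140.3 and 167 CPM in Q140 (median 158). Adora2a, the adenosine receptor that opposes D2 signalling, lay between 409 and 504 CPM in WT (median 458) and between 244 and 307 CPM in Q140 (median 284). For all 3 genes every Q140 animal was below every WT animal. The fitted changes were -0.54, SE 0.037 for Drd1 (adjusted p = 5.1e-17), -0.53, SE 0.045 for Drd2 (adjusted p = 1.9e-13) and -0.70, SE 0.057 for Adora2a (adjusted p = 1.5e-13). Of 8 dopamine and adenosine receptor genes tested, 4 were called lower and 0 higher, the remaining decrease being that of the weakly expressed Drd5 (-0.23, SE 0.078). Drd3 and Adora1 were not called (log2 fold changes 0.26 and -0.06). Of 5 muscarinic receptors 3 were lower: Chrm4, which counteracts D1 in the direct pathway (-0.49, SE 0.049), Chrm3 (-0.30, SE 0.077) and Chrm1 (-0.25, SE 0.031).

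Orphan receptors moved in both directions. Gpr6 (ENSMUSG00000046922, chromosome 10, 41069977 to 41072285), a constitutively active receptor of indirect-pathway MSNs, lay between 96.5 and 115 CPM in WT (median 106) and between 63.0 and 73.9 CPM in Q140 (median 71.2), with no overlap (log2 fold change -0.61, SE 0.047, adjusted p = 9.6e-15). Gpr139 and Gpr155 were lower as well (log2 fold changes -0.71 and -0.37). Gpr149 (ENSMUSG00000043441, chromosome 3, 62529077 to 62605140) went the other way and lay between 7.62 and 12.8 CPM in WT (median 8.96) and between 14.7 and 20.9 CPM in Q140 (median 15.7). Every Q140 animal exceeded every WT animal, and the highest Q140 value came from 1 male (log2 fold change 0.80, SE 0.10, adjusted p = 4.0e-08). Of the 6 orphan receptors tested, 5 were lower and 1 higher, against the 15.4% and 15.9% of all genes.

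Downstream of the receptors, among 23 G protein subunits, 6 were lower and 3 higher (5 lower and 12 higher with library totals). Gnal, the olfactory-type alpha subunit that couples D1 and adenosine receptors to cyclase in MSNs, differed by little (-0.17, SE 0.027), although every Q140 animal was below every WT animal. Gnb5, the beta subunit that partners RGS proteins, fell by more (-0.39, SE 0.038). The gamma subunits split: Gng7, the partner of Gnal, was lower (-0.18, SE 0.036), whereas Gng4 (0.58, SE 0.066) and Gng3 (0.45, SE 0.032) were higher. Gng3 lay between 65.1 and 75.8 CPM in WT (median 70.8) and between 91.2 and 103 CPM in Q140 (median 96.2), with no overlap.

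Adcy5, the main adenylyl cyclase of MSNs, (ENSMUSG00000022840, chromosome 16, 35154877 to 35305738) lay between 1937 and 2125 CPM in WT (median 2003) and between 1258 and 1427 CPM in Q140 (median 1351). No Q140 animal reached the lowest WT animal (log2 fold change -0.59, SE 0.035, adjusted p = 8.2e-19). Of 9 cyclases 3 were lower and 0 higher, and the other decreases were small: Adcy4 (-0.27, SE 0.094) and Adcy9 (-0.19, SE 0.045). Subunits and inhibitors of protein kinase A, the target of cAMP, changed little: the inhibitor Pkig was lower (-0.29, SE 0.027), and the regulatory subunit Prkar1b (0.16, SE 0.023) and the inhibitor Pkia (0.17, SE 0.036) were higher, 3 called of 9.

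Among the enzymes that degrade cyclic nucleotides, those best known from MSNs were lower. Pde10a, the phosphodiesterase enriched in MSNs, (ENSMUSG00000023868, chromosome 17, 8525372 to 8986648) lay between 2312 and 2674 CPM in WT (median 2577) and between 1495 and 1717 CPM in Q140 (median 1600), with no overlap (log2 fold change -0.67, SE 0.044, adjusted p = 7.4e-17). Pde1b, its calmodulin-activated relative, lay between 1792 and 1940 CPM in WT (median 1903) and between 1226 and 1370 CPM in Q140 (median 1264), again without overlap (log2 fold change -0.56, SE 0.033, adjusted p = 8.6e-19). Pde7b (-0.29, SE 0.036) and Pde2a (-0.27, SE 0.037) were lower by less. Of 19 phosphodiesterases 5 were lower, all 5 without overlap between the groups, and 2 were higher: Pde11a (0.61, SE 0.18), at about 1 CPM, and Pde4c (0.36, SE 0.11) (5 lower and 6 higher with library totals).

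The regulators of protein phosphatases moved in one direction. Of 12 genes 9 were lower, none was higher, and all 9 did not overlap between groups; the median log2 fold change of the list was -0.43, against 0.01 over all genes. Ppp1r1b (ENSMUSG00000061718, chromosome 11, 98348404 to 98357796) encodes DARPP-32, the inhibitor of protein phosphatase 1 that dopamine switches on. It lay between 2501 and 2897 CPM in WT (median 2737) and between 1702 and 2013 CPM in Q140 (median 1786) (log2 fold change -0.59, SE 0.044, adjusted p = 2.3e-15). Arpp21, a cAMP-regulated phosphoprotein of MSNs, lay between 1922 and 2208 CPM in WT (median 2079) and between 1148 and 1417 CPM in Q140 (median 1242), and Arpp19, an inhibitor of protein phosphatase 2A, lay between 703 and 862 CPM in WT (median 766) and between 460.2 and 518 CPM in Q140 (median 495). Their changes were -0.71, SE 0.045 and -0.65, SE 0.045. Ppp1r1a, the ubiquitous relative of DARPP-32, fell by a like amount (-0.58, SE 0.033), and so did the calcineurin subunit Ppp3ca to a smaller extent (-0.42, SE 0.033). Ptpn7, a tyrosine phosphatase that acts on MAP kinases, had the largest change of the list (log2 fold change -1.02, SE 0.093, adjusted p = 2.6e-12).

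RGS proteins, which shorten G protein signals, were lower in 11 of 19 cases. Rgs14 lay between 86.8 and 107 CPM in WT (median 92.5) and between 46.6 and 54.8 CPM in Q140 (median 50.7), Rgs4 lay between 687 and 932 CPM in WT (median 824) and between 431 and 578 CPM in Q140 (median 498), and Rgs9, the striatal form that restrains D2 signalling, lay between 843 and 961 CPM in WT (median 912) and between 577 and 714 CPM in Q140 (median 614). None of these 3 overlapped between the groups, with log2 fold changes of -0.90, -0.71 and -0.53. Rgs2, which neuronal activity induces, was lower with overlap (-0.50, SE 0.11). Rgs19 was the exception and was higher in every Q140 animal (log2 fold change 0.46, SE 0.058, adjusted p = 6.9e-09).

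**Figure D2:**
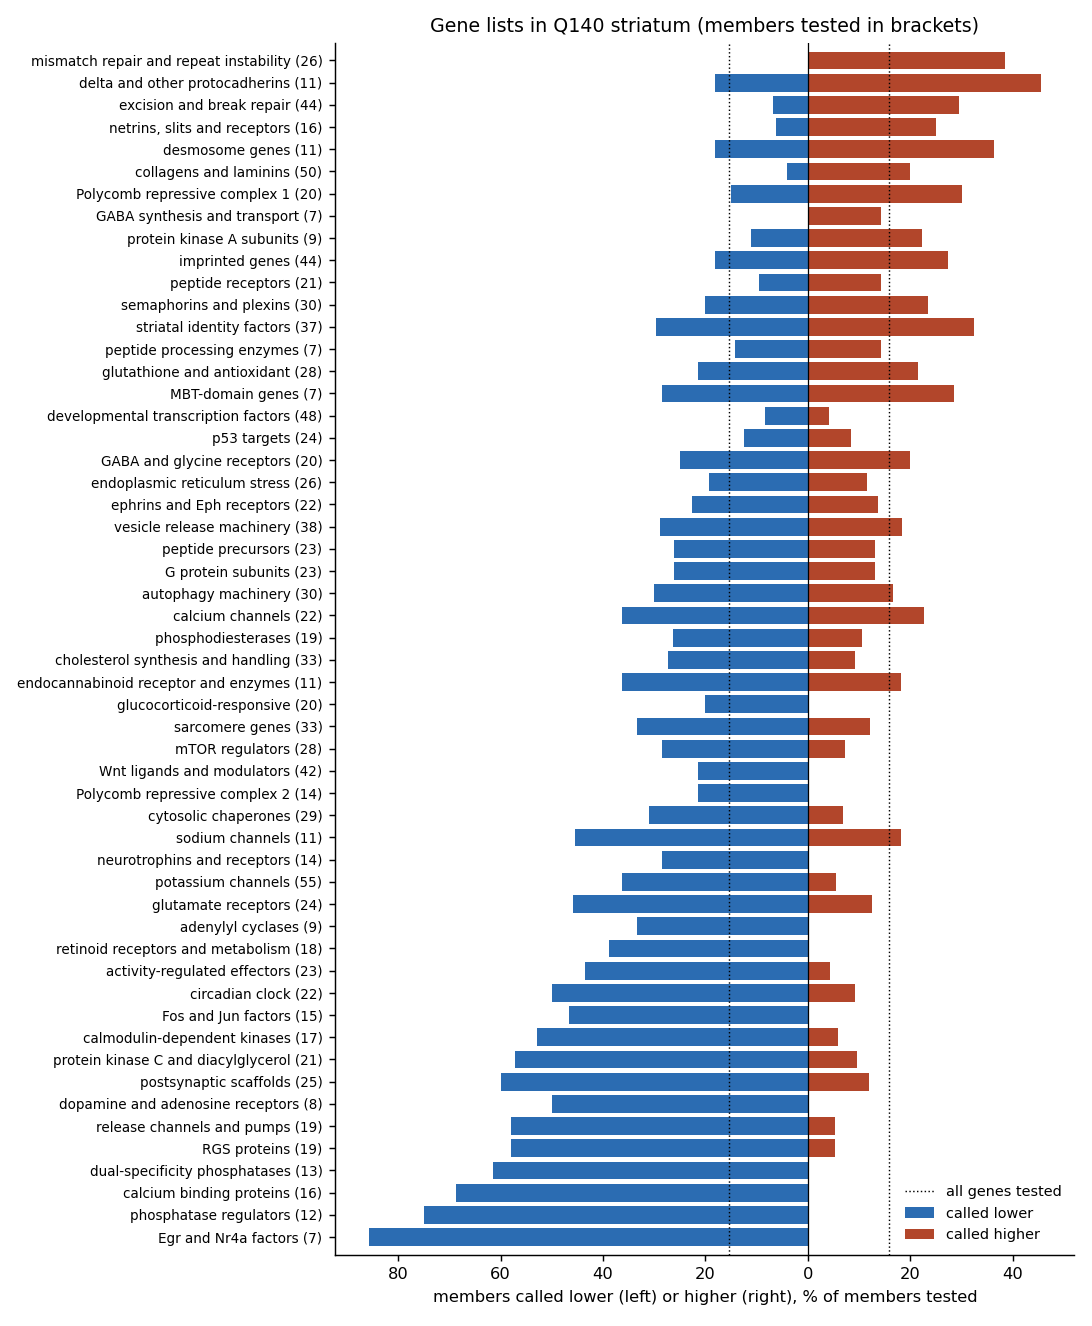
Share of the members of each gene list called lower (left) or higher (right) in Q140 striatum, in percent of the members tested, whose number stands in brackets; lists with fewer than 7 tested members and cell type markers are not drawn. Dotted lines mark the shares over all genes tested, 15.4% lower and 15.9% higher; phosphatase regulators, calcium binding proteins and Egr and Nr4a factors lie far to the left, and mismatch repair genes lie to the right.

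Genes of calcium handling were mostly lower. Of 19 release channels, pumps and exchangers 11 were lower and 1 was higher. Itpr1, the IP3-gated release channel of the endoplasmic reticulum, lay between 1592 and 1869 CPM in WT (median 1733) and between 1165 and 1298 CPM in Q140 (median 1234) (log2 fold change -0.48, SE 0.035, adjusted p = 2.8e-16). Atp2b1, a plasma membrane calcium pump, lay between 1839 and 2167 CPM in WT (median 2043) and between 1313 and 1572 CPM in Q140 (median 1485) (log2 fold change -0.48, SE 0.036, adjusted p = 1.4e-15). Ryr1, a release channel best known from skeletal muscle, had the largest change (-1.04, SE 0.086), and its 8 Q140 values, between 58.8 and 88.4 CPM, all lay under the lowest WT value of 129 CPM. The pump gene Atp2b4 was higher (0.41, SE 0.082), with overlap.

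Calcium binding proteins were lower in 11 of 16 cases and higher in none. Pcp4, a small calmodulin-binding protein, lay between 429 and 486 CPM in WT (median 456) and between 279 and 345 CPM in Q140 (median 303) (log2 fold change -0.59, SE 0.047, adjusted p = 3.8e-14). Hpca, the calcium sensor hippocalcin, lay between 1575 and 1873 CPM in WT (median 1763) and between 1137 and 1315 CPM in Q140 (median 1244) (log2 fold change -0.49, SE 0.045, adjusted p = 3.3e-12). In neither case did the groups overlap. Calb1, the calcium buffer calbindin, changed by less (-0.17, SE 0.052) and its groups overlapped.

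Among calmodulin-dependent kinases and their regulators 9 of 17 were lower. Itpka, an IP3 kinase of dendritic spines (-0.58, SE 0.054), Camkk1, an upstream kinase of the family (-0.50, SE 0.050), and Camk2n1, an inhibitor of CaMKII (-0.45, SE 0.048), led the list. Camk2a itself was -0.17, and Camk2d was the 1 member called higher (0.21, SE 0.065). Of 21 genes of protein kinase C and diacylglycerol signalling 12 were lower, 10 of them without overlap. They included Plcb1, the phospholipase that muscarinic and metabotropic receptors activate (-0.43, SE 0.037), and Rasgrp2, a diacylglycerol-responsive exchange factor (-0.48, SE 0.060). Dgka (0.22, SE 0.066) and Dgkg (0.16, SE 0.064), kinases that remove diacylglycerol, were higher.

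Cnr1, the cannabinoid receptor that lowers transmitter release, (ENSMUSG00000044288, chromosome 4, 33924593 to 33948831) lay between 419 and 544 CPM in WT (median 491) and between 205 and 334 CPM in Q140 (median 286). Every Q140 animal was below every WT animal (log2 fold change -0.80, SE 0.093, adjusted p = 4.3e-09). The 11 genes of this receptor and its enzymes held 4 lower and 2 higher (2 lower and 5 higher with library totals). Dagla and Daglb, which make the endocannabinoid 2-arachidonoylglycerol, were lower by less than Cnr1 (log2 fold changes -0.24 and -0.13). Abhd6, which breaks it down, was -0.08, and with library totals neither Abhd6 nor Daglb was called. In contrast, Faah, the hydrolase that breaks down anandamide, lay between 12.1 and 16.3 CPM in WT (median 14.4) and between 18.1 and 22.9 CPM in Q140 (median 21.6), with all Q140 animals above all WT animals (log2 fold change 0.55, SE 0.058, adjusted p = 4.3e-11), and Cnrip1, which binds the receptor, was also higher (0.32, SE 0.041).

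Ion channel genes were lower in part. Of 55 potassium channel genes 20 were lower and 3 higher. Kcnh4 lay between 77.4 and 99.8 CPM in WT (median 87.1) and between 46.1 and 61.5 CPM in Q140 (median 51.1) (log2 fold change -0.74, SE 0.064, adjusted p = 8.7e-13), and Kcnj4, an inward rectifier of MSNs, lay between 231 and 248 CPM in WT (median 234) and between 146 and 183 CPM in Q140 (median 176) (log2 fold change -0.47, SE 0.036, adjusted p = 4.2e-15). Kcnab1, a beta subunit of Kv1 channels, was lower too (-0.50, SE 0.037). Kcng1, a silent subunit that modifies Kv2 channels, (ENSMUSG00000074575, chromosome 2, 168260117 to 168281736) rose and lay between 36.9 and 51.5 CPM in WT (median 43.3) and between 66.6 and 82.0 CPM in Q140 (median 74.9). Its groups were far apart (log2 fold change 0.78, SE 0.075, adjusted p = 2.5e-11); the other increases were those of Kcnj3 (0.35, SE 0.055) and Kcnn1 (0.17, SE 0.060).

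Sodium channel genes moved both ways, with 5 lower and 2 higher of 11 (3 lower and 3 higher with library totals). Scn4b, the beta subunit enriched in MSNs, lay between 2457 and 2869 CPM in WT (median 2733) and between 1201 and 1480 CPM in Q140 (median 1380) and had the largest change (log2 fold change -0.999, SE 0.059, adjusted p = 7.7e-18). Scn9a (0.73, SE 0.083) and the beta subunit Scn3b (0.24, SE 0.034) were higher, both without overlap. Among 22 calcium channel genes 8 were lower and 5 higher (8 lower and 8 higher with library totals). The decreases were led by the beta subunits Cacnb1 (-0.39, SE 0.036) and Cacnb3 (-0.39, SE 0.044), and the increases by Cacna2d1 (0.25, SE 0.032). Of the pacemaker channels, Hcn2 was lower (-0.19, SE 0.039) and Hcn3 higher (0.36, SE 0.059).

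At the synapse, most scaffolds of the postsynaptic density were lower. Of 25 scaffold genes 15 were lower, 11 without overlap, and 3 were higher. Shank3, the scaffold at cortical inputs, lay between 589 and 683 CPM in WT (median 639) and between 414 and 479 CPM in Q140 (median 452) (log2 fold change -0.53, SE 0.038, adjusted p = 7.5e-16). Homer1, which links metabotropic glutamate receptors to IP3 receptors and has an activity-induced short form, lay between 293 and 416 CPM in WT (median 366) and between 192 and 232 CPM in Q140 (median 224) (log2 fold change -0.71, SE 0.075, adjusted p = 2.8e-10). Dlgap3 (-0.47, SE 0.040) and Baiap2 (-0.35, SE 0.034) were lower, while Shank2 (0.22, SE 0.041), Homer2 (0.17, SE 0.057) and Dlg3 (0.12, SE 0.027) were higher.

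Glutamate receptor genes were lower in 11 and higher in 3 of 24 cases. Grik2, a kainate receptor subunit (-0.40, SE 0.037), and the metabotropic receptor Grm4 (-0.35, SE 0.035) fell without overlap, and Grm8 rose (0.44, SE 0.10). Of 20 GABA and glycine receptor genes 5 were lower and 4 higher (3 lower and 8 higher with library totals). Gabra4 (-0.22, SE 0.034) and the extrasynaptic subunit Gabrd (-0.49, SE 0.037) fell, and the glycine receptor subunit Glra2 rose (0.40, SE 0.060). The enzymes and vesicle transporter that define GABA neurons were not called. Gad1 lay between 627 and 745 CPM in WT (median 677) and between 628 and 719 CPM in Q140 (median 674) and was not called (log2 fold change -0.01, SE 0.030, adjusted p = 0.85). Gad2 and Slc32a1 were not called either (log2 fold changes 0.04 and -0.02).

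Of 38 vesicle genes 11 were lower and 7 higher (7 lower and 18 higher with library totals). Syp, the vesicle protein synaptophysin, lay between 441 and 493 CPM in WT (median 472) and between 567 and 642 CPM in Q140 (median 609), and all Q140 animals were above all WT animals (log2 fold change 0.38, SE 0.028, adjusted p = 7.6e-16). Syt2, a fast calcium sensor of release, lay between 92.4 and 117 CPM in WT (median 108) and between 52.9 and 84.9 CPM in Q140 (median 69.3) (log2 fold change -0.66, SE 0.10, adjusted p = 1.8e-06). In the same direction as Syp, Stmn2, a tubulin-binding protein of growing axons, rose with no overlap (log2 fold change 0.63, SE 0.036, adjusted p = 2.8e-19).

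Precursors of the peptides of both output pathways behaved differently. Penk encodes the precursor of the enkephalins, peptides of indirect-pathway MSNs (ENSMUSG00000045573, chromosome 4, 4133531 to 4138819). It lay between 1607 and 2012 CPM in WT (median 1694) and between 770.0 and 908 CPM in Q140 (median 822), so the highest Q140 animal was well under the lowest WT animal (log2 fold change -1.07, SE 0.055, adjusted p = 1.3e-19). Tac1, the substance P precursor of direct-pathway MSNs, was slightly higher (0.17, SE 0.041), and Pdyn, the dynorphin precursor of the same pathway, lay between 85.5 and 109 CPM in WT (median 98.6) and between 84.2 and 111 CPM in Q140 (median 94.6) and was not called (-0.01). Among rarer peptides, Nts, the neurotensin precursor, lay between 2.08 and 2.80 CPM in WT (median 2.21) and between 3.31 and 5.28 CPM in Q140 (median 4.86) (log2 fold change 1.06, SE 0.18, adjusted p = 7.6e-06). Crh, the corticotropin-releasing hormone gene, had few reads in any library and lay between 0.38 and 1.91 CPM in WT (median 0.725) and between 0.025 and 0.409 CPM in Q140 (median 0.232) (log2 fold change -1.85, SE 0.34, adjusted p = 2.7e-05). Chgb, a granule protein of peptide vesicles, was lower (-0.29, SE 0.042). In all, 6 of 23 precursor and granule genes were lower and 3 higher (5 lower and 7 higher with library totals). Of 21 peptide receptors 3 were higher, Npy1r (0.45, SE 0.071), Oprl1 (0.32, SE 0.049) and Npy5r (0.19, SE 0.063), and 2 were lower, Ntsr1 (-0.65, SE 0.16) and the delta opioid receptor Oprd1 (-0.32, SE 0.058).

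**Figure D3:**
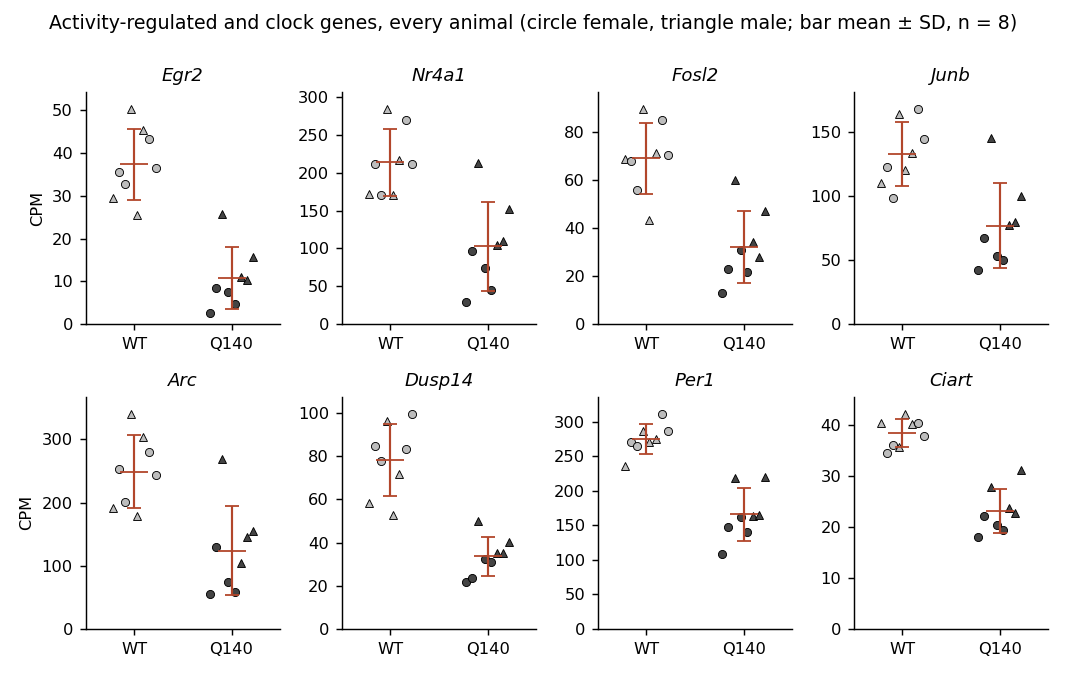
Level of 8 activity-regulated and clock genes in every animal, in CPM from 0, for 8 WT and 8 Q140 animals; circles are females, triangles males, and bars the mean ± SD. Dusp14, Per1 and Ciart do not overlap between the groups, the other 5 genes do, and for Egr2 the Q140 animals run from 2.69 to 25.8 CPM.

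Genes that neurons switch on when they are active were lower in Q140, with a wide spread between animals. Of 7 Egr and Nr4a transcription factors 6 were called lower and 0 higher, with a list median of -1.005. Egr2 (ENSMUSG00000037868, chromosome 10, 67535475 to 67542188) lay between 25.6 and 50.2 CPM in WT (median 36.0) and between 2.69 and 25.8 CPM in Q140 (median 9.32) (log2 fold change -1.84, SE 0.29, adjusted p = 2.1e-06). Nr4a1 lay between 171 and 284 CPM in WT (median 212) and between 28.8 and 212 CPM in Q140 (median 101) (log2 fold change -1.07, SE 0.29, adjusted p = 0.0037). In both genes 1 Q140 male overlapped the WT animals. Egr1, Egr3 and Egr4 were lower as well (log2 fold changes -0.88, -0.66 and -1.005), and of these Egr3 alone did not overlap. Nr4a3 was called (-1.04, SE 0.32) and Nr4a2, at about 1 CPM, was not (0.13, SE 0.33).

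Of 15 Fos, Jun and related factors 7 were lower and 0 higher: Fosl2 (-1.099, SE 0.29), Junb (-0.81, SE 0.18), Jun (-0.56, SE 0.078) and Ier5 (-0.55, SE 0.067) among them. Fos itself lay between 15.5 and 34.1 CPM in WT (median 21.1) and between 4.73 and 43.1 CPM in Q140 (median 17.2) and was not called (log2 fold change -0.48, SE 0.35, adjusted p = 0.33), nor were Fosb (-0.20, SE 0.13) and Npas4 (-0.51, SE 0.28). Arc, the synaptic protein whose RNA moves to active dendrites, lay between 178 and 341 CPM in WT (median 248) and between 54.8 and 269.7 CPM in Q140 (median 116) (log2 fold change -1.03, SE 0.28, adjusted p = 0.0032). Dual-specificity phosphatases, which end MAP kinase signals, were lower in 8 of 13 cases. Dusp14 (ENSMUSG00000018648, chromosome 11, 84048041 to 84069261) lay between 52.6 and 99.6 CPM in WT (median 80.6) and between 21.6 and 50.0 CPM in Q140 (median 33.7), the Q140 animals all below the WT animals (log2 fold change -1.20, SE 0.19, adjusted p = 2.7e-06). Dusp1 (-0.80, SE 0.17) and Dusp6 (-0.66, SE 0.15) overlapped.

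The fitted decreases of the Egr and Nr4a genes were larger in females than in males for all 6 called, but the difference between the sexes was not called for any gene. Egr2 changed by -2.67 in females and -1.28 in males, Junb by -1.32 and -0.40, and Arc by -1.63 and -0.59. The list medians were -1.43 and -0.55 for the Egr and Nr4a factors. In cortex of the same animals the Egr2 change was -1.16 and that of Arc -0.92, neither called, and the striatal change was not shown to differ from the cortical one (adjusted p of the difference 0.36 and 0.89). In Q140 striatum the same male (8-2) had the highest Egr2 and Nr4a1, and the same female (7-1) the lowest.

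The stretches before the start of 4 lower genes are shown because they hold, letter for letter, the elements through which cAMP signalling is classically read: the CRE (TGACGTCA) in Gpr6, Chgb and Dusp1, and the enkephalin-type element (TGCGTCA) in Nr4a1. Each is the 250 bases before a RefSeq transcript start (GRCm38.p6), 5′ to 3′ on the gene's strand, with the elements in capitals.
Gpr6 (chr10:41072291-41072540, minus strand): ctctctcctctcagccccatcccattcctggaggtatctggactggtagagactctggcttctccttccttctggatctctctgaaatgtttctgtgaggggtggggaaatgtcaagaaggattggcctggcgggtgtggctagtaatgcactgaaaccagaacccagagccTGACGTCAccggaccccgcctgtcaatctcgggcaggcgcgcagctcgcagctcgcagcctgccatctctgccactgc
Chgb (chr2:132781392-132781641, plus strand): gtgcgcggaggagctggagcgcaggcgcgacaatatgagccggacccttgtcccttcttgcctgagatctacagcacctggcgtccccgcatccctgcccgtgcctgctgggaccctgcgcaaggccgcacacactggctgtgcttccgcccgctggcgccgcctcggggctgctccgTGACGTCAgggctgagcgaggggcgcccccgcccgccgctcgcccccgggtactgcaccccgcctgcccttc
Dusp1 (chr17:26508473-26508722, minus strand): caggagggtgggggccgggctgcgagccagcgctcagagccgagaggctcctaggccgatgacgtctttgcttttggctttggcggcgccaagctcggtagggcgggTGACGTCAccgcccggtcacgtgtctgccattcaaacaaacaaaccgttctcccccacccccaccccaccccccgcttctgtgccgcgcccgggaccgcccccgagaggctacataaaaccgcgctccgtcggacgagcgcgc
Nr4a1 (chr15:101266596-101266845, plus strand): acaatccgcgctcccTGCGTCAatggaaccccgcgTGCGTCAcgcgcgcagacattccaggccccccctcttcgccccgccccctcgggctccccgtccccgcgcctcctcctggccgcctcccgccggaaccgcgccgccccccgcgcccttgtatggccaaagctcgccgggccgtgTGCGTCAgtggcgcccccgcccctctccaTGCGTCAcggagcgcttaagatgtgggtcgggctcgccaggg
The CRE lies 78 bases before the start in Gpr6, 72 in Chgb and 143 in Dusp1, counted to its first base, and Nr4a1 holds 4 copies of its element. These promoters were picked for their elements among called genes and are not typical of the lower genes. Of 12216 tested genes with a promoter in the RefSeq table, 2.92% held a CRE on either strand, 3.68% of those called higher and 3.29% of those called lower. For TGCGTCA the shares were 3.24%, 3.73% and 3.63%, for the Egr motif GCGTGGGCG 1.15%, 1.21% and 1.69%, and for the CCAAT box 39.7%, 39.9% and 40.4%. Among all called genes the shares of the directions thus lay close together. Among those over 1.5-fold, where matches were few, TGCGTCA stood before 2 of 171 higher genes (1.17%) and 8 of 181 lower genes (4.42%). For the CRE these shares were 1.75% and 2.21%. A match is a description of the letters only.

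Clock genes were lower in 11 of 22 cases, 8 without overlap, and higher in 2. Per1, which both the clock and neuronal activity induce, lay between 236 and 312 CPM in WT (median 273) and between 108 and 220.4 CPM in Q140 (median 163) (log2 fold change -0.73, SE 0.12, adjusted p = 8.2e-06). Ciart, a repressor of the clock, lay between 34.5 and 42.2 CPM in WT (median 39.0) and between 18.0 and 31.1 CPM in Q140 (median 22.4) (log2 fold change -0.74, SE 0.086, adjusted p = 2.9e-09), and Dbp, a clock output factor, was lower too (-0.48, SE 0.050), as were Nr1d1 (-0.41, SE 0.056) and Bhlhe40 (-0.51, SE 0.082). Nfil3 (0.26, SE 0.091) and Csnk1d (0.05, SE 0.020) were the 2 called higher. Of 20 glucocorticoid-responsive genes 4 were lower, namely Dusp1, Per1, Cdkn1a and Klf9, and 0 higher (3 lower and 4 higher with library totals), while the list median was 0.11.

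Transcription factors of striatal identity went both ways: 11 of 37 were lower and 12 higher. Meis2 (-0.26, SE 0.028) and Bcl11b, which MSNs need to mature (-0.23, SE 0.037), were lower, each with no overlap. Sox11, a factor of immature neurons, (ENSMUSG00000063632, chromosome 12, 27334264 to 27342574) lay between 15.5 and 20.9 CPM in WT (median 16.5) and between 29.2 and 38.1 CPM in Q140 (median 31.3) (log2 fold change 0.90, SE 0.10, adjusted p = 3.6e-10). Isl1, which specifies direct-pathway MSNs (0.31, SE 0.044), Foxp4 (0.30, SE 0.042) and Bcl11a (0.24, SE 0.032) were also higher. Of 18 genes of retinoic acid signalling 7 were lower and none higher, among them the receptors Rarb (-0.34, SE 0.050) and Rxrg (-0.50, SE 0.10) and the retinol carrier Rbp4 (log2 fold change -0.68, SE 0.065, adjusted p = 3.3e-12).

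Polycomb complexes keep developmental genes silent. Of 14 genes of Polycomb repressive complex 2, 3 were lower, Aebp2 (-0.19, SE 0.029), Rbbp7 (-0.19, SE 0.026) and E130012A19Rik (log2 fold change -0.93, SE 0.077, adjusted p = 2.1e-13), and none was higher (3 lower and 7 higher with library totals). The catalytic and core subunits Ezh2, Eed and Suz12 were not called (log2 fold changes 0.04, 0.00 and 0.06). Of 20 genes of complex 1, 6 were higher and 3 lower. Cbx8 (0.48, SE 0.075), which binds the silencing mark, was higher in every Q140 animal than in every WT animal. Sfmbt2, an MBT-domain protein that binds methylated histones, (ENSMUSG00000061186, chromosome 2, 10370510 to 10595253) lay between 1.94 and 2.93 CPM in WT (median 2.36) and between 4.64 and 8.23 CPM in Q140 (median 6.47) (log2 fold change 1.41, SE 0.10, adjusted p = 1.0e-16), and L3mbtl3 of the same family was higher (0.39, SE 0.061).

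Few developmental transcription factors, many of them Polycomb targets in other tissues, were called. Of 107 such genes listed, 48 had enough reads to be tested, a filter that a gene can pass through the Q140 group alone. Of these 48 genes 2 were higher (4.17%) and 4 lower (8.33%), against 15.9% and 15.4% of all genes (4 lower and 4 higher with library totals). In the fifth of genes with the lowest WT FPKM the shares were 10.8% higher and 3.42% lower. The part of low read counts in the small number of calls was not tested. Wt1 lay between 0 and 0.238 CPM in WT (median 0.0877) and between 0.284 and 1.31 CPM in Q140 (median 0.721) (log2 fold change 3.02, SE 0.40, adjusted p = 2.4e-08); 1 or more WT animals had no read. Onecut2 was the other increase (0.24, SE 0.088). Mafa lay between 1.92 and 4.05 CPM in WT (median 3.28) and between 0.499 and 0.959 CPM in Q140 (median 0.66) (log2 fold change -2.23, SE 0.16, adjusted p = 6.2e-16) and Gbx1 was lower too (-0.71, SE 0.16).

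Genes of cell adhesion went both ways. Of 11 protocadherins outside the clusters 5 were higher and 2 lower, against 15.9% and 15.4% of all genes. Pcdh20 lay between 7.49 and 9.74 CPM in WT (median 8.04) and between 11.8 and 19.3 CPM in Q140 (median 17.6) (log2 fold change 0.96, SE 0.11, adjusted p = 1.1e-09) and Pcdh19, an X-linked gene, lay between 10.1 and 15.6 CPM in WT (median 13.4) and between 18.7 and 25.4 CPM in Q140 (median 21.8) (log2 fold change 0.76, SE 0.087, adjusted p = 1.5e-09), both with no overlap. Among 11 desmosome genes 4 were higher, Dsg2, Dsg1c, Dsp and Pkp2 (log2 fold changes 1.24, 1.07, 0.78 and 0.51), and Ppl (-0.60) and Jup (-0.15) were lower. Of 50 collagens and laminins 10 were higher (20.0%) and 2 lower (4.0%), a higher share near the 15.9% of all genes. Col11a1 (0.63, SE 0.10) and Col6a2 (0.57, SE 0.090) were among the higher. The list median was 0.11 here. In the animals with 1 Pms1 copy, described below, it was -0.05, with 7 higher and 5 lower.

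Slit2, a repellent of growing axons, (ENSMUSG00000031558, chromosome 5, 47983138 to 48307733) lay between 6.51 and 9.47 CPM in WT (median 7.57) and between 9.26 and 17.9 CPM in Q140 (median 12.5), with overlap (log2 fold change 0.72, SE 0.14, adjusted p = 7.7e-05). Slit1 (0.26, SE 0.041), Robo1 (0.10, SE 0.025) and Neo1 (0.11, SE 0.028) rose by less, and Slit3 was lower (-0.15, SE 0.038). Of 22 ephrins and Eph receptors 3 were higher, such as Efna5 (0.38, SE 0.063), and 5 lower, such as Epha10 (-0.38, SE 0.093) (3 lower and 10 higher with library totals). Semaphorins and plexins split 7 to 6 of 30: Plxna3 (0.42, SE 0.068) and Sema3a (0.25, SE 0.045) were higher, and Sema7a (-0.54, SE 0.067) and Plxnd1 (-0.28, SE 0.042) lower. Of 42 Wnt genes 9 were lower (21.4%) and 0 higher, against 15.4% and 15.9% of all genes. With library totals 7 were lower and 2 higher. Wnt4 lay between 2.53 and 4.08 CPM in WT (median 3.06) and between 0.977 and 1.86 CPM in Q140 (median 1.26) (log2 fold change -1.37, SE 0.16, adjusted p = 8.1e-10), and Wnt8b (-2.004, SE 0.30), the antagonist Dkk2 (-1.20, SE 0.19) and Rspo1 (-0.65, SE 0.10) were lower with overlap.

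Sarcomere genes, which encode the contractile apparatus of muscle, were mixed, with 11 lower and 4 higher of 33. Myh7b, a slow-type myosin, lay between 9.06 and 11.6 CPM in WT (median 9.91) and between 4.39 and 5.51 CPM in Q140 (median 4.96) (log2 fold change -1.02, SE 0.086, adjusted p = 8.4e-14), while Tnnt2 (1.076, SE 0.093), Ttn (1.14, SE 0.13), Neb (0.42, SE 0.14) and Ldb3 (0.36, SE 0.045) rose.

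DNA repair genes differed by small amounts. Of 26 genes of mismatch repair and repeat instability 10 were higher and 0 lower, with a median of 0.09. Fan1, a nuclease gene, lay between 11.8 and 14.2 CPM in WT (median 13.3) and between 14.5 and 17.0 CPM in Q140 (median 15.7), with no overlap (log2 fold change 0.23, SE 0.051, adjusted p = 0.00038). Of 44 genes of excision and break repair 13 were higher, for example Xrcc5 (0.31, SE 0.036) and Prkdc (0.30, SE 0.039) of DNA end joining, and 3 were lower, Fancd2 (-0.30, SE 0.083), Nbn (-0.22, SE 0.050) and Ercc6 (-0.13, SE 0.031).

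Counts for stress pathways turned with the scaling. Of 26 genes of endoplasmic reticulum stress 5 were lower, Atf6 (-0.41, SE 0.037) and the chaperone Hsp90b1 (-0.27, SE 0.053) among them, and 3 were higher, each by 0.17 or less (2 lower and 4 higher with library totals). Cytosolic chaperones were lower in 9 and higher in 2 of 29 cases, Hspa2 (0.26, SE 0.061) and Cct2 (0.07, SE 0.025) (3 lower and 8 higher with library totals). Autophagy genes were lower in 9 and higher in 5 of 30, including Sqstm1, the cargo receptor p62 (0.08, SE 0.019) (2 lower and 9 higher with library totals). Of 24 p53 targets 3 were lower, with Cdkn1a at -0.38, SE 0.13 and Gadd45a at -0.49, SE 0.10, and 2 were higher, Eda2r (0.64, SE 0.21) and Trp53inp1 (0.24, SE 0.092) (3 lower and 8 higher with library totals). Ddit4l, a regulator of mTOR signalling induced by stress, lay between 36.6 and 54.7 CPM in WT (median 39.6) and between 10.0 and 14.5 CPM in Q140 (median 12.8) and was among the 10 genes with the smallest p in the lower direction (log2 fold change -1.77, SE 0.086, adjusted p = 1.3e-19). Gpx6, a glutathione peroxidase, was the one antioxidant gene with a large change (log2 fold change -1.85, SE 0.14, adjusted p = 2.4e-14); the other 11 called of 28 moved by less than 0.4. Imprinted genes, expressed from 1 parental copy, were higher in 12 and lower in 8 of 44, with Kcnq1ot1 (0.40, SE 0.078) and Peg10 (-0.75, SE 0.12) at the ends beside Sfmbt2. In cholesterol synthesis 9 of 33 were lower, led by Acat2 (-0.45, SE 0.071), and 3 higher (6 lower and 9 higher with library totals).

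Cell type markers were compared as lists. All 10 markers shared by MSNs were lower, and their summed level fell from between 15650 and 17600 CPM in WT to between 10480 and 11930 CPM in Q140. The 8 indirect-pathway markers summed to between 2418 and 2938 CPM in WT and to between 1333 and 1525 CPM in Q140. Penk made up the largest part of both sums. Of these 8 markers 6 were called lower and 1, P2ry1, was called higher. Direct-pathway markers summed to between 870 and 962 CPM in WT and to between 763 and 832 CPM in Q140. Within the 8 direct-pathway markers, however, 4 were called higher (Eya1, Isl1, Tac1 and Ebf1) and 3 lower (Drd1, Chrm4 and Sfxn1), with a list median of 0.06. Striosome and matrix markers overlapped, at 365 to 423 against 346 to 421 CPM and at 1289 to 1428 against 1236 to 1421 CPM. Of 13 interneuron markers 2 were lower, Nos1 (-0.14, SE 0.040) and Sst (-0.11, SE 0.042) (0 lower and 2 higher with library totals), and of 8 cholinergic markers 1 was lower, Slc5a7 (-0.10, SE 0.041), and 1 higher, Ache (0.12, SE 0.035).

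Glial and vascular markers differed by less. Of 15 microglial markers 9 were lower, by a median of -0.13, and their sum lay between 615 and 669 CPM in WT and between 539 and 633 CPM in Q140; with library totals in place of TMM factors 2 of 15 were called. Of 16 endothelial and mural markers 8 were lower (4 with library totals), Tagln of smooth muscle the most (-0.67, SE 0.11). Astrocyte markers were lower in 2 of 14 cases, Slc1a2 (-0.16, SE 0.033) and Aldoc (-0.12, SE 0.030), and oligodendrocyte markers in 1 of 14 (0 lower and 1 higher with library totals). Of markers of neighbouring tissue, 1 of 12 for thalamus and pallidum was lower, Slc17a6 (-0.92, SE 0.33), and the summed levels overlapped at 162 to 175 and 158 to 173 CPM. The 14 astrocyte markers summed to between 4474 and 4836 CPM in WT and between 4147 and 4484 CPM in Q140, and the 11 markers of cortical projection neurons to between 1815 and 2045 and between 1585 and 1872 CPM. The 5 blood markers, none called, lay between 0.191 and 9.79 CPM in WT and between 0.338 and 19.0 CPM in Q140. The part of these other cell types in the striatal changes was not tested.

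**Figure D4:**
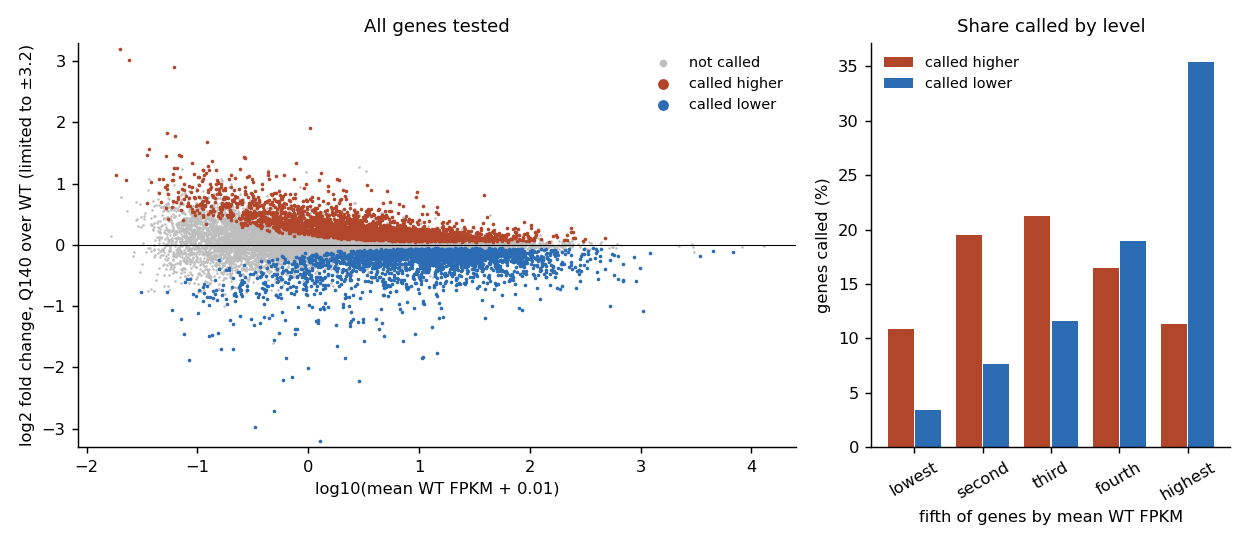
Left, log2 fold change of Q140 over WT (drawn limited to ±3.2) against the mean WT level as log10(FPKM + 0.01) for all 18890 genes tested. Right, percent of genes called higher and lower in each quintile of genes by WT level: the lowest has 10.8% higher and 3.42% lower, the highest 11.3% and 35.4%.

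Strongly expressed genes were more often lower. In the quintile of genes with the highest FPKM in WT, a unit that allows for gene length, 35.4% were called lower and 11.3% higher. In the lowest quintile 3.42% were lower and 10.8% higher. Among the 100 genes with the highest FPKM 55 were lower and 8 higher. With library totals in place of TMM factors the highest quintile had 20.7% lower and 34.8% higher, so there the order of the directions turned, while it did not in the lowest quintile (2.57% and 16.8%). Weak genes have few reads, so the shares of the quintiles are not on an equal footing. By type of gene, 18.1% of lincRNAs and 18.5% of antisense RNAs were higher and 8.06% and 7.63% lower, against 16.8% and 17.8% of protein-coding genes. Meg3, an imprinted long noncoding RNA, had among the largest gains in CPM (0.28, SE 0.057, from 4354 ± 358 to 5278 ± 539 CPM, SD, n = 8 each).

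Shares differed by position in the genome. On the X chromosome 24.5% of 683 genes tested were higher and 9.66% lower, against 15.6% and 15.6% of 18101 autosomal genes. The share of higher calls was also above that of autosomes in females alone (14.6% higher and 7.81% lower, against 9.58% and 11.8% on autosomes) and in males alone (12.5% and 3.39%, against 6.29% and 8.65%). With library totals 42.2% of X-linked genes were higher and 4.83% lower, against 33.3% and 8.63% on autosomes.

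Around Htt on chromosome 5, 43.1% of the 144 genes starting within 5 Mb were called, 32 higher and 30 lower, and 37.5% of the 315 within 20 Mb, against 29.0% on the rest of the chromosome and 31.3% overall. Fosl2, Gbx1 and Slit2, named above, start 2.63, 10.3 and 13.2 Mb from Htt. Whether their position has a part in their changes was not tested. Gm2420, a pseudogene (ENSMUSG00000082305, chromosome 5, 32720330 to 32736194) 2.04 Mb from Htt, was the most changed gene of all in relative terms: it lay between 0 and 0.0715 CPM in WT (median 0.0216) and between 0.689 and 1.19 CPM in Q140 (median 0.954) (log2 fold change 5.17, SE 0.32, adjusted p = 3.2e-18). It rose likewise in cortex (log2 fold change 4.28). Abhd1, 3.81 Mb from Htt, lay between 3.39 and 4.07 CPM in WT (median 3.97) and between 3.23 and 7.61 CPM in Q140 (median 6.89) (log2 fold change 0.75, SE 0.12, adjusted p = 1.6e-06) and was also higher in cortex (1.17, adjusted p = 8.6e-08).

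**Figure D5:**
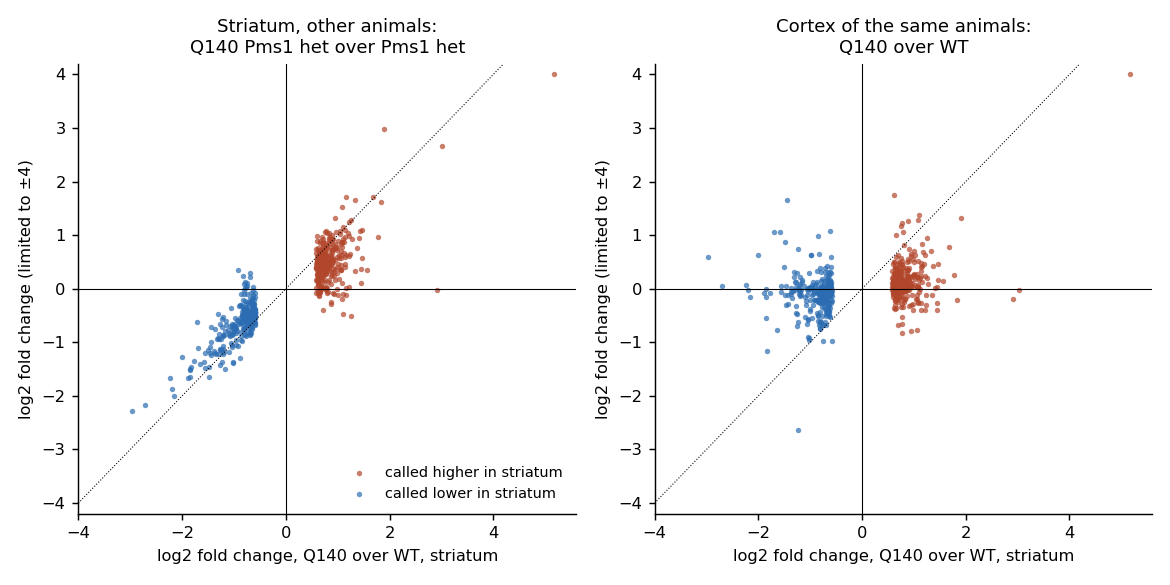
Log2 fold changes of the 606 genes called and over 1.5-fold in striatum (x axis), set against the knock-in effect in striatum of other animals with 1 Pms1 copy (left) and against Q140 over WT in cortex of the same animals (right), both drawn limited to ±4. Dotted lines mark equal changes; at left 569 of 606 genes have the same sign, at right the points scatter around 0, with Gm2420 at the top right in both.

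The 16 animals with 1 Pms1 copy, 8 with Q140 (Q140 Pms1 het) and 8 without (Pms1 het), were none of those compared above. Their libraries were part of the same fit, so the low-count filter and the estimate of spread behind the calls used them too. Some of these animals share the first number of their code with animals of the first comparison. Their own comparison called 4698 genes (24.9% of those tested). Of the 606 genes over 1.5-fold, 569 (93.9%) had the same sign there and 378 were also called in the same direction, against a same-sign share of 66.2% among genes not called in Q140 against WT. The median ratio of the log2 fold changes of these 606 genes, these animals over the first, was 0.70. The genes were selected for large changes in the first comparison, so a ratio below 1 is expected from the selection alone. It cannot show whether the knock-in effect was weaker with 1 Pms1 copy. Of the 292 lower genes 223 were called again and of the 314 higher genes 155, the higher genes having a median level of 0.53 CPM in WT and the lower ones 3.37 CPM. Penk changed by -0.87, Adcy5 by -0.44, Homer1 by -0.73, Gpr149 by 0.82 and Sox11 by 0.73. Genes called in opposite directions numbered 4, Irf3, Rmdn1, Gm12799 and Mir124a-1hg, each by less than 0.2 either way.

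The knock-in effect differed between striatum and cortex for 2617 of 19723 genes (13.3%), among them 290 of the 605 genes over 1.5-fold in striatum that could be tested in both. Those 605 genes were selected by their change in the same striatal libraries, which are part of the tissue contrast. A raised share among them therefore follows in part from the selection. In cortex alone 16 genes were called, and 3 of them were over 1.5-fold in striatum: Gm2420, Abhd1 and Sertad1 (-0.64, SE 0.074 in striatum and -0.44 in cortex). For Adcy5 the cortical change was 0.02 and the difference between the tissues -0.62 (adjusted p = 8.2e-20). For Scn4b these values were 0.03 and -1.04 (adjusted p = 1.0e-15), for Pcdh19 -0.05 and 0.80 (adjusted p = 3.0e-09). Ptpn7 was lower in striatum (-1.02). Cortex held hardly any of its reads: WT animals averaged 0.033 CPM there, and Q140 animals 0.018 CPM. At that level the cortical value (-0.96, not called) and the tissue test (adjusted p = 0.99) cannot show whether the tissues differ.

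Directions in females and males were alike for nearly all called genes. Of the 5909 called genes 5904 had the same sign in both sexes, and all 606 genes over 1.5-fold did; these signs come from the same animals as the calls. No gene's change was called different between the sexes by edgeR, although 1221 had an unadjusted p under 0.05. DESeq2 called 2: Tceal8 (-0.20 in females and 0.22 in males) and Pcdha1 (0.84 and -0.84), neither of which was called between Q140 and WT over both sexes.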

How the data were processed

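RNA-seq of striatum and cortex from 6 genotypes was deposited as 2 tables. The authors aligned reads with STAR 2.7.5c, handled them with SAMtools 1.10 and counted them with HTSeq 0.12.3 on GRCm38 (mm10), per the submitters' processing notes. The deposited table of raw read counts per gene was used for all tests, and the deposited FPKM values of the authors for comparing levels between genes. No source used here states the strand setting of the counting or its annotation release, so reads of overlapping antisense genes may be mixed. Coordinates are those of GENCODE M21, and 126 gene names that occur more than once were kept apart by identifier.

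Counts of the 48 striatal libraries were fitted with edgeR 4.0.16 (R 4.3.3; filterByExpr, TMM factors, robust quasi-likelihood fit, genotype and sex as terms), which shares 1 estimate of spread over the genotypes. Adjusted p-values are Benjamini-Hochberg values from this quasi-likelihood test over all 18890 genes, called below 0.05. The tissue difference was fitted over striatum and cortex libraries. The 8 animals per group are separate animals, some of which share the first number of their code. Depth ran from 32454122 to 56364535 counts per library. On simulated data with these depths 50 of 100 genes changed by 0.4 on the log2 scale were recovered, and 97 of 100 changed by 1.0. The simulation gave every gene the same spread and changed far fewer genes than were called in the data. These shares therefore check the procedure and do not give the recovery in the real comparison. Alternatives used limma 3.58.1, DESeq2 1.42.0, other scalings, filters and subsets of animals.

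Named genes were Htt, Pms1, the 25 largest changes each way among called genes of at least 1 CPM, the 10 each way by p and by difference in CPM, and the leading 4 each way of each of 73 gene lists and of the genes near Htt, with further members where a family is described. Members and lists were chosen with earlier results of these data known. Promoters come from RefSeq (GRCm38.p6). No protein sequence was used here.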

Additional observations from a re-analysis of the deposited data

Results flagged for a closer look

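Each named gene was checked for an animal far from the other 7 of its group (Dixon's gap test, 95% level). Of 464 groups of 8 animals 25 had one, where chance flags about 1 in 20. Values are in CPM. Q140 animal 18-2 stood apart for Gpr149 at 20.9 (highest, next 16.5), Gpr139 at 7.24 (lowest, next 13.9), Dlgap3 at 462 (lowest, next 503) and Ache at 97.5 (lowest, next 103). Q140 animal 23-4 stood apart for Nts at 3.31 (lowest, next 4.40), Ppp1r1b at 2013 (highest, next 1833), Drd5 at 4.18 (highest, next 3.57) and Abhd1 at 3.23 (lowest, next 6.69). Q140 animal 7-1 stood apart for Klf9 at 227 (lowest, next 255) and Slc5a7 at 54.7 (lowest, next 59.2). Q140 animal 7-3 stood apart for Trp53inp1 at 27.5 (highest, next 21.6). Q140 animal 8-2 stood apart for Wnt8b at 1.92 (highest, next 1.03), Nr1d1 at 132 (highest, next 111) and Myoc at 7.01 (highest, next 0.239). WT animal 11-2 stood apart for Kcnq1ot1 at 19.1 (lowest, next 24.4). WT animal 11-4 stood apart for Sfxn1 at 85.3 (highest, next 72.8). WT animal 12-4 stood apart for Abhd1 at 3.39 (lowest, next 3.86). WT animal 14-2 stood apart for Nts at 2.80 (highest, next 2.29), Ppp1r1a at 78.4 (lowest, next 84.0), Atp2b4 at 82.0 (highest, next 67.9) and Plcb1 at 542 (lowest, next 583). WT animal 14-4 stood apart for Dsg2 at 0.665 (lowest, next 1.67), Cacnb3 at 176 (highest, next 158) and Plxnd1 at 236 (highest, next 218). WT animal 8-4 stood apart for Slc17a6 at 0.358 (lowest, next 0.886).

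The knock-in effect differed between striatum and cortex, by the test of the difference itself (edgeR, adjusted p), for 2617 genes.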

How the results depend on the processing

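The number of called genes ran from 5264 to 6098 with only the 16 libraries, RLE size factors, no filter on low counts, DESeq2, limma voom, the first code number as a random effect or no sex term, against 5909. It was 7940 with library totals and 7809 with limma on log2(FPKM + 0.1), where 79.8% and 79.9% of calls were higher. Females alone gave 4016, males alone 2807, and animals with a first code number under 16 gave 4912. With 1 library left out it ran from 5382 to 5881, and the number over 1.5-fold from 565 to 672. Over all other settings the number over 1.5-fold ran from 407 (FPKM) to 737 (no filter).

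With the animal as a replicate block the tissue difference was called for 3579 genes, against 2617. The sex difference was called for 2 genes by DESeq2, against 0 by edgeR. Signs turned for Htt (0.0053 with library totals, 0.0052 on FPKM), Atf4 in males alone (0.011), and the uncalled Tceal8 and Pcdha1 in females alone (-0.199 and 0.839). With library totals Abhd6, Adcy4, Aldoc, Calb1, Daglb, Drd5, Ercc6, Jup, Klf9, Nos1, Sfxn1, Slc5a7, Slit3 and Sst lost their call. Leaving out 1 library ended the call, in at least 1 case each, of Abhd6, Adcy4, Cct2, Csnk1d, Dgkg, Drd5, Gm12799, Htt, Kcnn1, Mir124a-1hg, Myoc, Neb, Nfil3, Onecut2, Sfxn1, Slc17a6, Slc5a7, Sst and Trp53inp1. Medians of 27 of the 73 lists changed sign with library totals or FPKM, none of them above 0.077 in size. The cause of these differences was not tested. Depth limits the genes under 1 CPM most, as their counts are few.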

Other observations

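The largest decrease of any gene tested was that of Ifi27l2b, a member of an interferon-inducible family, which lay between 0.734 and 1.87 CPM in WT (median 1.499) and between 0.038 and 0.149 CPM in Q140 (median 0.0605). Every Q140 animal was below every WT animal (edgeR, log2 fold change -4.18, SE 0.27, adjusted p = 1.8e-17). Arid3c (-2.97, SE 0.38) and Sohlh1 (-2.71, SE 0.29), genes of DNA-binding proteins, followed. These 3 genes had a mean under 1 CPM and were named after their values were seen. In the animals with 1 Pms1 copy the 3 changes were -3.13, -2.29 and -2.17.

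Myoc, the myocilin gene, had a large increase in Q140 against WT (edgeR, log2 fold change 2.91, SE 0.71, adjusted p = 0.0014), and lay between 0.0216 and 0.203 CPM in WT (median 0.105) and between 0.0226 and 7.01 CPM in Q140 (median 0.187). The highest value was that of 1 Q140 male (8-2), and the next Q140 animal stood at 0.239 CPM. Without that male the log2 fold change was 0.56 and was no longer called, so the call rests on 1 library. Myoc was also named after its values were seen. In the animals with 1 Pms1 copy its change was -0.03.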
